A study of Mus musculus with 4 samples.

Results

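The 9 genes described here encode the liver X receptors (Nr1h3 and Nr1h2), the sterol transporters Abca1, Abcg1, Abcg5 and Abcg8, and the LXR targets Mylip, Lpcat3 and Pltp. They were taken by symbol from the 24346 genes listed in every library, and all 9 passed the filter of a mean of at least 0.5 FPKM that 12299 genes passed. FPKM is the number of fragments mapped to a gene scaled by exon length and by the size of the library, so levels can be set side by side between genes. The data were RNA sequencing profiles of whole liver from male C57BL/6 mice, aged 8 weeks when feeding began and not yet treated on the skin with imiquimod. All mice ate a diet high in fat, cholesterol and sucrose with bile salt (NASH diet) for 3 weeks, which induces steatohepatitis. The 7KC group received this diet with 7-ketocholesterol (7KC), an oxidized cholesterol, and the control group received it without. There were 2 libraries per group, and a group on ordinary chow was not analysed here. The labels do not say that the libraries came from separate animals, so the p-values measure only the spread between these samples.

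LXRα (Nr1h3) and LXRβ (Nr1h2) are nuclear receptors that bind DNA with a retinoid X receptor and are activated by oxysterols. In hepatocytes they switch on genes that secrete cholesterol into bile, load it onto lipoproteins and make fatty acids, and in macrophages they switch on genes that hand cholesterol to HDL. ABCG5 and ABCG8 work only as a pair, at the canalicular membrane of the hepatocyte, whereas ABCA1 and ABCG1 pass sterols, and in the case of ABCG1 also 7KC, to lipid-poor apolipoprotein and to HDL.

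Abcg5 and Abcg8 were the most abundant of the 9 genes in both groups and were lower in both 7KC libraries than in both control libraries, at about 0.6 of the control level. Abcg1, the least abundant of the 9 in the control group, was higher in both 7KC libraries, at 1.71 times the control level. The levels of Abca1 and Nr1h3 overlapped between the groups. None of the 9 genes passed the test over all genes (limma, Benjamini-Hochberg adjusted p under 0.05), and the smallest adjusted p was 0.101, for Abcg5.

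Abcg5 (chr17:84658234-84683011, minus strand) and Abcg8 (chr17:84676302-84700333, plus strand; build GRCm38) lie head to head, and 109 bases separate the start of Abcg5 from the nearest annotated start of Abcg8, which has another at 84676302 inside Abcg5. The stretch between them, chr17:84683012-84683120 on the plus strand of GRCm38.p6 in RefSeq, is shown because it separates both starts and both were lower in the 7KC libraries. Capitals mark matches to AGATAA on either strand, a form of the sequence bound by GATA factors.
Abcg5-Abcg8: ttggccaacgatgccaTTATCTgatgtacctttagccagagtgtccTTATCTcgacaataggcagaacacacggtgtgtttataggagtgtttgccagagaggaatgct
The 2 matches are both written on the strand opposite to Abcg8. Of 32851 windows of 300 bases around mouse gene starts in the same table, 11.2% held AGATAA.

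The promoter of Abca1 (chr4:53030787-53159895, minus strand), the transporter that loads cholesterol onto apolipoprotein A-I, is shown as a contrast, because its level did not separate the groups. The 100 bases before its start are chr4:53159896-53159995, minus strand. Capitals mark a direct repeat of GGTNA with 5 bases between the copies, the core of an LXR response element, which lies on the opposite strand with its first base at position -67 from the start.
Abca1: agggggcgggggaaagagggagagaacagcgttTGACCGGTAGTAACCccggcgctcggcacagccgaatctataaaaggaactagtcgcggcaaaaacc
The repeat was searched on both strands and was found in 0.718% of the 32851 windows. Of the 9 genes, 8 had windows in the table, 10 windows in all, and Abcg1 was not among them. Only that of Abca1 held the repeat. AGATAA was found only in the window of Abcg5 and that of the nearest start of Abcg8, which overlap and hold the same 3 sites. The window of the other Abcg8 start held none. The single half-site AGGTCA was in none of the 10 windows and in 16.3% of all windows. These are letters in a short window and say nothing about binding.

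The receptors were examined first, because the other genes respond to LXR through them. Nr1h3 (chr2:91184061-91202834, minus strand), the main LXR of hepatocytes, was at 58.5 and 62.7 FPKM in the control group, against 62.1 and 57.5 FPKM in the 7KC group. Neither group lay above the other. The log2 change, here always on the log2(FPKM + 0.5) scale and as 7KC minus control, was -0.02 (SE 0.11, 95% interval -0.30 to 0.27; limma adjusted p 0.944).

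Nr1h2 (chr7:44549616-44553951, minus strand), the LXR found in nearly all cell types, was at 22.0 and 20.5 FPKM in the control group, against 24.9 and 22.5 FPKM in the 7KC group. The groups did not overlap, with 22.0 and 22.5 FPKM as the nearest values. The log2 change was 0.15 (SE 0.11, 95% interval -0.14 to 0.44; limma adjusted p 0.525). Within each library Nr1h3 exceeded Nr1h2, by 2.66 and 3.06 times in the control libraries and by 2.49 and 2.55 times in the 7KC libraries.

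**Figure D1:**
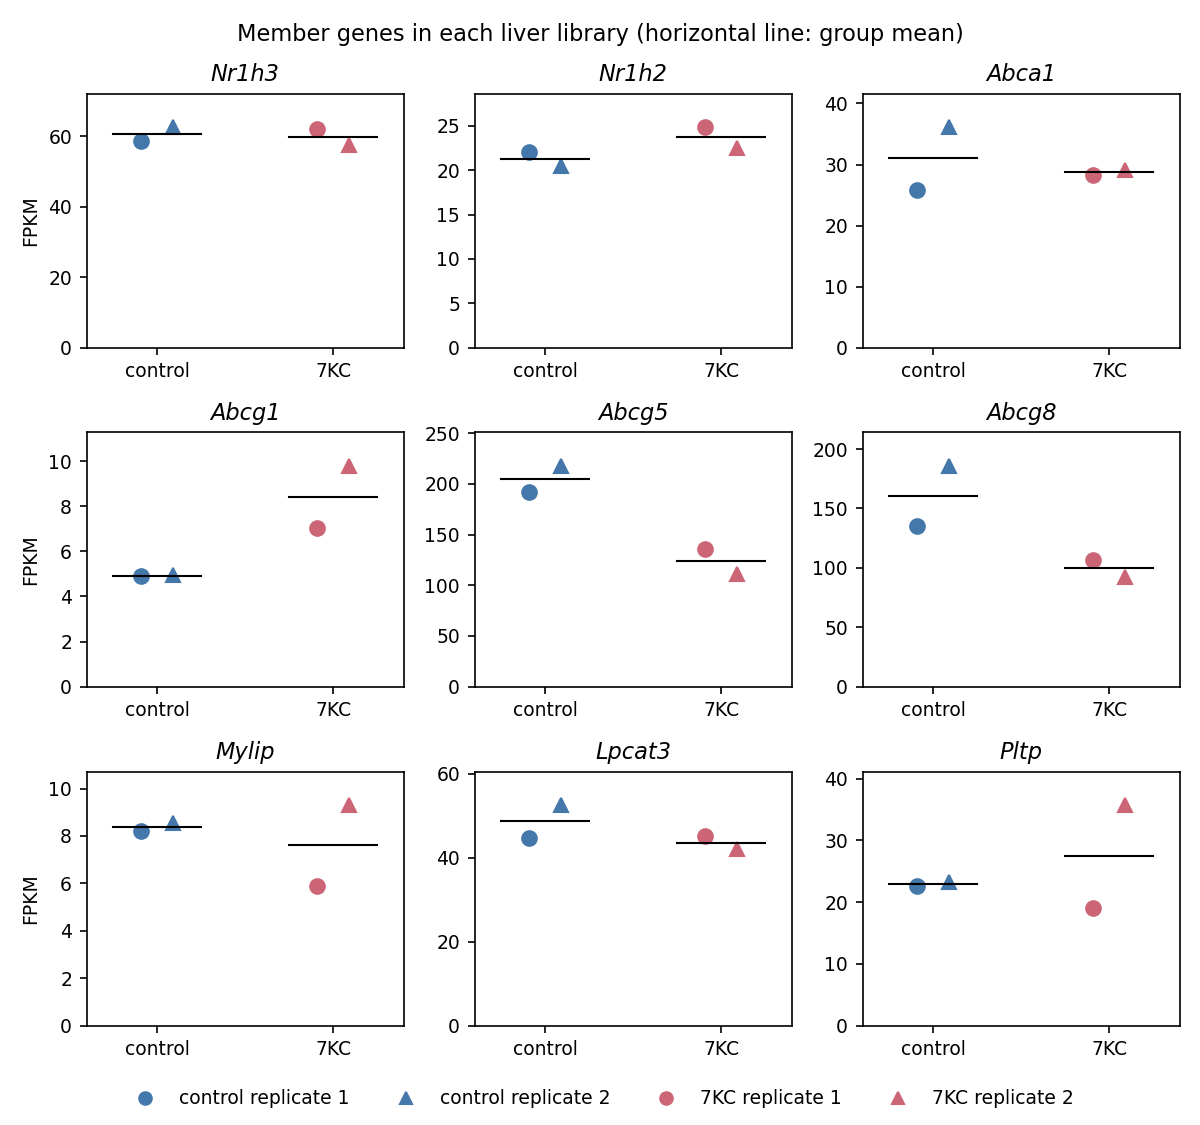
Level of each of the 9 genes (y axis, FPKM, from 0) in the control and 7KC groups (x axis); each point is 1 library and the horizontal line is the mean of the 2 libraries. Abcg5 and Abcg8 lie lower and Abcg1 and Nr1h2 higher in both 7KC libraries than in both control libraries, and in Mylip and Pltp the 7KC libraries stand far apart from each other.

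Among the transporters, Abcg5 was at 192 and 218 FPKM in the control group, against 136 and 111 FPKM in the 7KC group. Both 7KC libraries lay below both control libraries. The means were 205 ± 18.4 and 123 ± 17.6 FPKM (SD, n = 2 each), a ratio of 0.601, with a log2 change of -0.74 (SE 0.15, 95% interval -1.12 to -0.35). The unadjusted limma p was 0.00419 and the adjusted p 0.101, so the difference was larger than the spread between these libraries but not past the threshold over all genes.

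Its partner Abcg8 was at 135 and 186 FPKM in the control group, against 107 and 92.5 FPKM in the 7KC group. The order of the groups was that of Abcg5, with a wider spread among the controls. The means were 160 ± 35.7 and 99.7 ± 10.3 FPKM, a ratio of 0.622, with a log2 change of -0.67 (SE 0.19, 95% interval -1.15 to -0.19; limma p 0.0150, adjusted p 0.175). Leaving out control replicate 1 gave -0.90 and leaving out control replicate 2 gave -0.44, so the size of the difference depended on which control library was kept.

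The ratio of Abcg5 to Abcg8 within a library, which does not depend on how libraries are scaled, was 1.42 and 1.17 in the control group, against 1.27 and 1.20 in the 7KC group. These ranges overlapped, and the mean log2 ratio differed by -0.07 with a pooled SD of 0.14. The ratio thus did not separate the groups. Their exons share 82 bases on opposite strands in GENCODE M21, which is 3.02% of the exon bases of Abcg5 and 2.19% of those of Abcg8. The strand setting of the counting was not stated, so a few reads could have been given to the other gene.

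Abcg1 (chr17:31057675-31117988, plus strand), abundant in macrophages and low in hepatocytes, was at 4.89 and 4.93 FPKM in the control group, against 7.03 and 9.80 FPKM in the 7KC group. The control libraries were almost equal, whereas 7KC replicate 2 stood above 7KC replicate 1. The log2 change was 0.70 (SE 0.18, 95% interval 0.25 to 1.16; limma p 0.00994, adjusted p 0.142). It was 0.48 without 7KC replicate 2 and 0.93 without 7KC replicate 1. The library with the fewest reads of Abcg1, control replicate 2, held about 384 of them, whose counting error has a coefficient of variation of 5.11%.

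Abca1 was at 25.8 and 36.2 FPKM in the control group, against 28.3 and 29.1 FPKM in the 7KC group. Both 7KC libraries lay between the control libraries, and the log2 change was -0.09 (SE 0.18, 95% interval -0.54 to 0.37; limma adjusted p 0.837). Leaving out control replicate 1 gave -0.33 and leaving out control replicate 2 gave 0.16.

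Because FPKM is relative to the total of its library, the transporters were also compared within libraries. The ratio of Abcg1 to Abcg5 was 0.0255 and 0.0226 in the control group, against 0.0518 and 0.0885 in the 7KC group. It was thus 2.82 times as high in the 7KC group, a log2 difference of 1.50 with a pooled SD of 0.40. The ratio of Abcg1 to Abca1 was 0.190 and 0.136 in the control group, against 0.248 and 0.336 in the 7KC group, 1.80 times as high, with a log2 difference of 0.84 and a pooled SD of 0.32. Neither ratio overlapped between the groups. For Abcg1 to Abcg5 this was fixed beforehand, since Abcg1 was higher and Abcg5 lower in both 7KC libraries. That ratio therefore restates the values of the 2 genes and is not a separate result. With 2 libraries against 2 an exact permutation test cannot go below a two-sided p of 0.333, the value that both ratios gave. The ratio of Nr1h3 to Nr1h2 was also without overlap, with a log2 difference of -0.18, a pooled SD of 0.10 and the same exact p of 0.333. For Abcg5 to Abcg8 the exact p was 1.

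**Figure D2:**
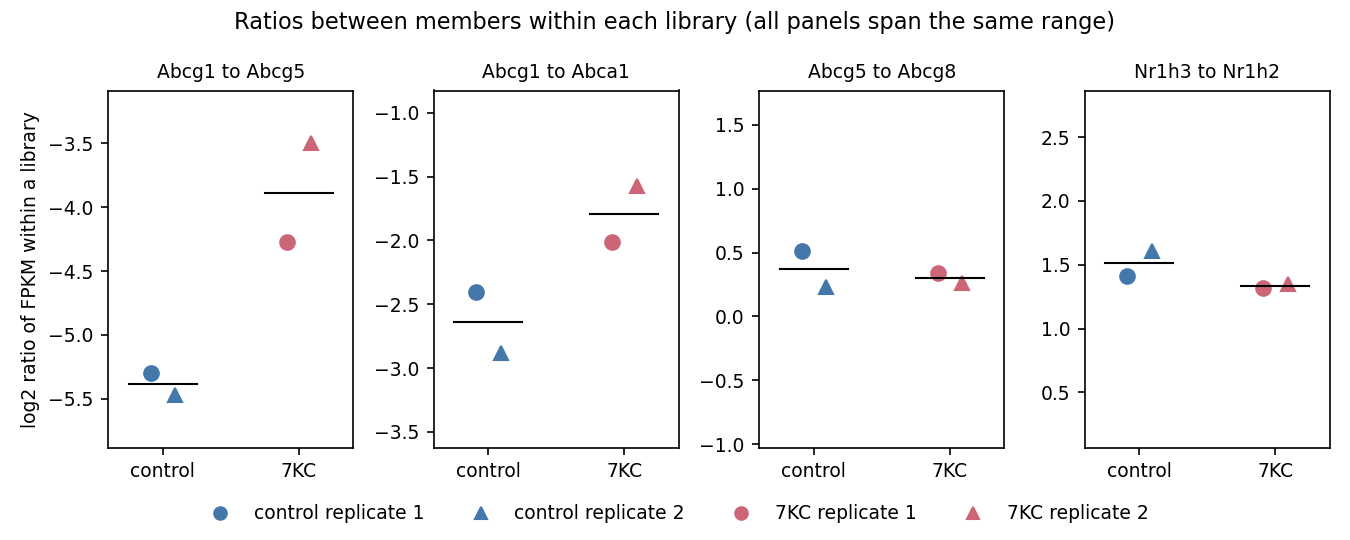
Log2 ratio of FPKM between 2 genes within a library (y axis, all 4 panels spanning the same range) in the control and 7KC groups (x axis), 1 point per library, with the horizontal line at the mean of each group. The ratios of Abcg1 to Abcg5 and of Abcg1 to Abca1 lie higher in both 7KC libraries, whereas the ratio of Abcg5 to Abcg8 overlaps.

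The other LXR targets did not separate the groups. Mylip (chr13:45389742-45412022, plus strand), a ubiquitin ligase switched on by LXR, was at 8.22 and 8.56 FPKM in the control group, against 5.88 and 9.32 FPKM in the 7KC group. One 7KC library lay below and the other above both controls, and the log2 change was -0.17 (SE 0.22, 95% interval -0.73 to 0.39; limma adjusted p 0.729).

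Lpcat3 (chr6:124663027-124704418, plus strand), which puts polyunsaturated fatty acids into phospholipids, was at 44.7 and 52.6 FPKM in the control group, against 45.1 and 42.0 FPKM in the 7KC group. The ranges overlapped narrowly, with a log2 change of -0.16 (SE 0.13, 95% interval -0.48 to 0.17; limma adjusted p 0.564). Of its exon bases, 10.2% are shared with Emg1 (at up to 42.6 FPKM) on the opposite strand. With the strand setting not stated, reads of Emg1 could have been given to Lpcat3.

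Pltp (chr2:164839518-164857711, minus strand), which moves phospholipids between lipoproteins, was at 22.6 and 23.2 FPKM in the control group, against 19.1 and 35.8 FPKM in the 7KC group. The 7KC libraries lay on either side of the controls, and their SD of 11.8 FPKM exceeded the control SD of 0.457 FPKM. The log2 change was 0.19 (SE 0.29, 95% interval -0.55 to 0.93; limma adjusted p 0.771), and it was 0.63 without 7KC replicate 1 and -0.26 without 7KC replicate 2. Of its exon bases, 19.3% are shared with Ctsa (at up to 58.3 FPKM) on the opposite strand. The strand setting was not stated, so reads of Ctsa could have been given to Pltp.

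**Figure D3:**
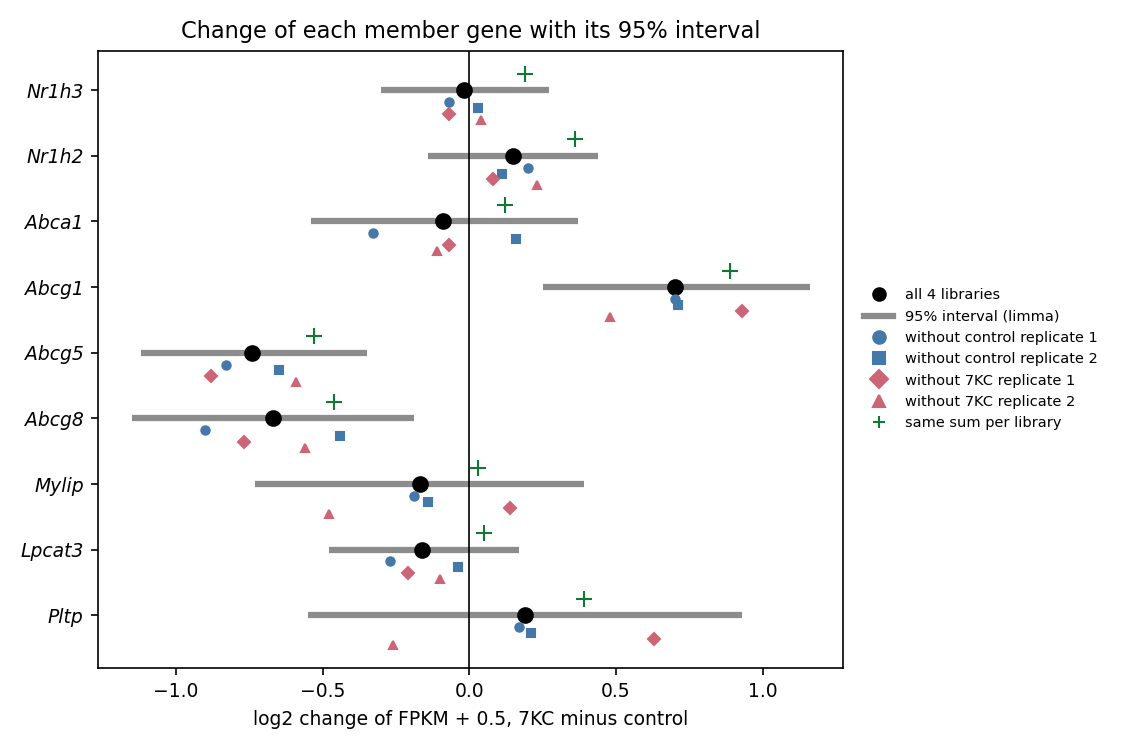
Log2 change of FPKM + 0.5, 7KC minus control (x axis), of each of the 9 genes (y axis). Black points and grey bars are the estimate from all 4 libraries with its 95% interval, smaller symbols the estimates with 1 library left out, and green crosses those after rescaling all libraries to the same sum; for Abcg1, Abcg5 and Abcg8 all of these lie on 1 side of 0.

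Of the 9 genes, 0 passed an adjusted p of 0.05 upwards and 0 downwards with limma, beside 0.480% and 0.0244% of all tested genes. At an unadjusted p under 0.05, 1 gene (Abcg1) was higher, beside 12.0% of all tested genes, and 2 (Abcg5 and Abcg8) were lower, beside 5.81%. For 2 of the 9, both 7KC libraries exceeded both controls (Abcg1 and Nr1h2), beside 25.1% of all tested genes, and for 2 they lay below (Abcg5 and Abcg8), beside 27.4%. The counts without overlap were thus near those over all genes. They depended on single libraries, since an arm of 1 library overlaps less often. Without 7KC replicate 1 there were 4 higher and 4 lower, where 36.9% and 41.9% of all tested genes were so. Without 7KC replicate 2 there were 2 higher and 4 lower (33.7% and 37.5% of all). Leaving out control replicate 1 gave 2 higher and 5 lower (37.3% and 41.2% of all), and leaving out control replicate 2 gave 3 higher and 2 lower (35.5% and 40.7% of all). The median log2 change of the 9 genes was -0.09 with 3 positive and 6 negative, and that of all tested genes was -0.03.

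The 4 libraries held an estimated 17100000, 13800000, 13600000 and 13700000 mapped reads (control replicates 1 and 2, then 7KC replicates 1 and 2). The summed FPKM of all genes was 671235 to 685028 in the control libraries and 557138 to 619828 in the 7KC libraries. When all libraries were rescaled to the same sum, the median log2 change over all tested genes went from -0.03 to 0.16. On that scale Nr1h3 was at 0.19, Abca1 at 0.12, Mylip at 0.03 and Lpcat3 at 0.05, each with its sign turned. The median of the 9 genes was 0.12, with 7 positive and 2 negative, beside 9254 positive and 3045 negative of all tested genes. Abcg1 was at 0.89, Abcg5 at -0.53 and Abcg8 at -0.46, with their direction kept.

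The order of levels was the same in both groups for the upper part of the list. In the control group the means ran from Abcg5 (205 FPKM) and Abcg8 (160) through Nr1h3 (60.6), Lpcat3 (48.7), Abca1 (31.0), Pltp (22.9), Nr1h2 (21.2) and Mylip (8.39) to Abcg1 (4.91). No neighbours in that order overlapped in range. In the 7KC group Abcg1 (8.41) stood above Mylip (7.60), with overlapping ranges, and Pltp overlapped with both Abca1 and Nr1h2. In every library the genes for biliary secretion were therefore far more abundant than Abca1, and Abca1 more abundant than Abcg1.

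Because whole liver was sequenced, fewer cells of a type and less RNA per cell cannot be told apart. Marker genes of the cell types were therefore summed in each library. Hepatocyte markers such as Alb, the gene for serum albumin, summed to 59828 to 73236 FPKM in the control libraries and to 40642 to 52883 FPKM in the 7KC libraries. Alb alone made up a large part of these sums. It was at 41547 and 25202 FPKM in the control group, against 26969 and 18988 FPKM in the 7KC group, and overlapped between the groups. All 11 measured hepatocyte markers were lower in the 7KC group, with a median log2 change of -0.51. For 8 of them the groups did not overlap, beside 27.4% of all tested genes. After rescaling to the same sum 10 of 11 were lower, with a median of -0.30. Abcg5 and Abcg8, themselves hepatocyte genes, were at -0.74 and -0.67 beside these.

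Markers of monocytes and recruited macrophages, such as the lysozyme gene Lyz2, summed to 422 to 660 FPKM in the control libraries and to 1201 to 1924 FPKM in the 7KC libraries. Lyz2 alone made up a large part of these sums. It was at 538 and 321 FPKM in the control group, against 995 and 1583 FPKM in the 7KC group. All 12 markers of this list had a positive log2 change, with a median of 1.38. For 8 of them both 7KC libraries exceeded both controls, beside 25.1% of all tested genes. Markers of resident Kupffer cells summed to 602 to 649 and 842 to 1196 FPKM. Without overlap, 5 of 8 were higher and 1 lower, beside 25.1% and 27.4% of all tested genes. The higher ones were Timd4, Cd5l, Marco, C1qa and C1qb, and the lower one was Vsig4 (log2 change -0.41). Clec4f (-0.03) and Folr2 (0.02) overlapped between the groups. Those markers that stand for T and NK cells summed to 14.3 to 20.1 and 42.9 to 50.8 FPKM. Of them, 8 of 8 tested were higher without overlap, beside 25.1% of all tested genes. For both macrophage lists the highest sum was in 7KC replicate 2, the library in which Abcg1 and Pltp were also highest. Sums of sinusoidal endothelial markers overlapped between the groups (141 to 168 and 139 to 204 FPKM), as did those of B cells, cholangiocytes and erythroid cells. Stellate cell markers summed to 170 to 178 and 127 to 157 FPKM, of which Dcn alone was at 140 and 147 against 101 and 124 FPKM. Of these 7 markers, 3 had a positive and 4 a negative log2 change. Their median was -0.13, and 0.07 after rescaling to the same sum. Neutrophil markers summed to 18.5 to 34.1 and 39.7 to 42.8 FPKM. Of 4 tested, 2 were higher without overlap, beside 25.1% of all tested genes, and the rest overlapped. No marker on these lists passed an adjusted p of 0.05 with limma in all 4 libraries as deposited. Of 66 tested markers, 9 passed after rescaling to the same sum, all of them higher and of immune cells. On that scale 398 of all 12299 tested genes passed upwards. No matched marker was at 0 in all libraries, but of the 4 matched erythroid markers only 2 passed the filter. The part that a shift of cell types had in the values of Abcg1, Abcg5, Abcg8 and Pltp was not tested.

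The genes whose profile over the 4 libraries was closest to that of Abcg1 were Itpripl2, Slc52a2 and Kcna2, with Euclidean distances of 0.0335, 0.0374 and 0.0514 between centred log2 values. Itpripl2 was at 2.32 and 2.30 FPKM in the control group, against 3.31 and 4.82 FPKM in the 7KC group. Among those closest to Abcg5 were Fam13a and Agxt, with distances of 0.0351 and 0.0477. Agxt, a peroxisomal enzyme of hepatocytes, was at 121 and 141 FPKM in the control group, against 87.5 and 73.0 FPKM in the 7KC group. Abcg8 ranked 46th by closeness to Abcg5, at a distance of 0.213. With 4 libraries many genes share any one profile.

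The other genes of the pathway were then described by list. Of the 14 retinoid X receptors and coregulators that LXR works with, 0 passed an unadjusted limma p of 0.05 in either direction. Of all tested genes, 12.0% were higher and 5.81% lower at that p. The log2 changes of the 14 lay between -0.26 and 0.29. Rxra, the retinoid X receptor most abundant in these livers, was at 108 and 106 FPKM in the control group, against 96.0 and 91.4 FPKM in the 7KC group (log2 change -0.19, limma adjusted p 0.413; 0.02 after rescaling to the same sum). The coactivator genes Ncoa2 and Ncoa3 were at -0.26 and 0.29 without rescaling, with limma adjusted p-values of 0.349 and 0.311. After rescaling to the same sum they were at -0.06 and 0.48. Then 13 of the 14 partners were above 0 instead of 8, with a median of 0.22 instead of 0.02. That scale put 9254 of all 12299 tested genes above 0, with a median of 0.16.

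Of the 16 other LXR target genes, 4 were higher and 4 lower at an unadjusted limma p of 0.05, beside 12.0% and 5.81% of all tested genes. Of the 16, 0 passed the adjusted threshold. Their median log2 change was -0.44, and -0.23 after rescaling to the same sum. Log2 changes were positive for 7 and negative for 9, beside 5674 and 6625 of all tested genes. Srebf1, the transcription factor for fatty acid synthesis, was at 74.1 and 101 FPKM in the control group, against 54.5 and 52.5 FPKM in the 7KC group (log2 change -0.69, SE 0.17, limma adjusted p 0.137). Tgm2, a transglutaminase also made by macrophages and endothelium, was at 42.4 and 40.1 FPKM in the control group, against 66.3 and 76.6 FPKM in the 7KC group (log2 change 0.78, SE 0.12, limma adjusted p 0.0621). Lpl, the lipoprotein lipase gene, had a log2 change of 0.58 (limma adjusted p 0.264), with both 7KC libraries above both controls. Apoe had one of -0.40 (limma adjusted p 0.535), with both below. The targets in this list thus lay on both sides of 0, with a lower median than the -0.03 of all tested genes. After rescaling to the same sum the median of all tested genes was 0.16.

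Cyp7a1, the rate-limiting enzyme of bile acid synthesis, was at 13.9 and 55.9 FPKM in the control group, against 22.0 and 17.3 FPKM in the 7KC group. The control libraries differed more from each other than the groups did, and the sign of its log2 change of -0.51 (limma adjusted p 0.704) turned without control replicate 2. Leaving out control replicate 1 instead gave -1.49 with a limma adjusted p of 0.0286.

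Of the 17 genes of HDL and of sterol transport within the cell, Npc1l1 was listed at 0 in every library and 16 were tested. Of these, 2 were higher and 1 lower at an unadjusted limma p of 0.05, beside 12.0% and 5.81% of all tested genes. Apoa1, the main HDL protein and the acceptor of ABCA1, had a log2 change of -0.68 (limma adjusted p 0.304), and Apom, a minor HDL protein, one of -0.63 (limma adjusted p 0.145), both without overlap. Npc2, the lysosomal cholesterol carrier, was at 32.8 and 28.4 FPKM in the control group, against 42.2 and 54.5 FPKM in the 7KC group (log2 change 0.64, limma adjusted p 0.143). Its partner Npc1 overlapped between the groups, with a log2 change of -0.20. Scarb1, the HDL receptor, had one of -0.17, whose sign turned after rescaling to the same sum.

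Of the 18 other Abca and Abcg genes, 10 were tested. At an unadjusted limma p of 0.05, 1 was higher and 1 lower, beside 12.0% and 5.81% of all tested genes. Abca7 was at 1.41 and 1.29 FPKM in the control group, against 1.99 and 2.17 FPKM in the 7KC group (log2 change 0.48, limma adjusted p 0.214). Abca6 was at 49.6 and 59.0 FPKM in the control group, against 41.9 and 41.0 FPKM in the 7KC group (log2 change -0.38, limma adjusted p 0.228). Both changes were smaller than those of Abcg1, Abcg5 and Abcg8 without rescaling, whereas after rescaling to the same sum Abca7 was at 0.64, beside -0.53 for Abcg5 and -0.46 for Abcg8.

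Of the 6 lysophospholipid acyltransferases other than Lpcat3, 4 were tested. At an unadjusted limma p of 0.05, 2 were higher, beside 12.0% of all tested genes. Lpcat2, found in inflammatory cells, was at 3.13 and 1.89 FPKM in the control group, against 6.47 and 11.0 FPKM in the 7KC group (log2 change 1.60, SE 0.31, limma adjusted p 0.0934). Lpcat4 had a log2 change of 0.80 (limma adjusted p 0.110). Lpcat3, the LXR target of this enzyme family, was at -0.16, and in every library it was the most abundant of them.

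**Figure D4:**
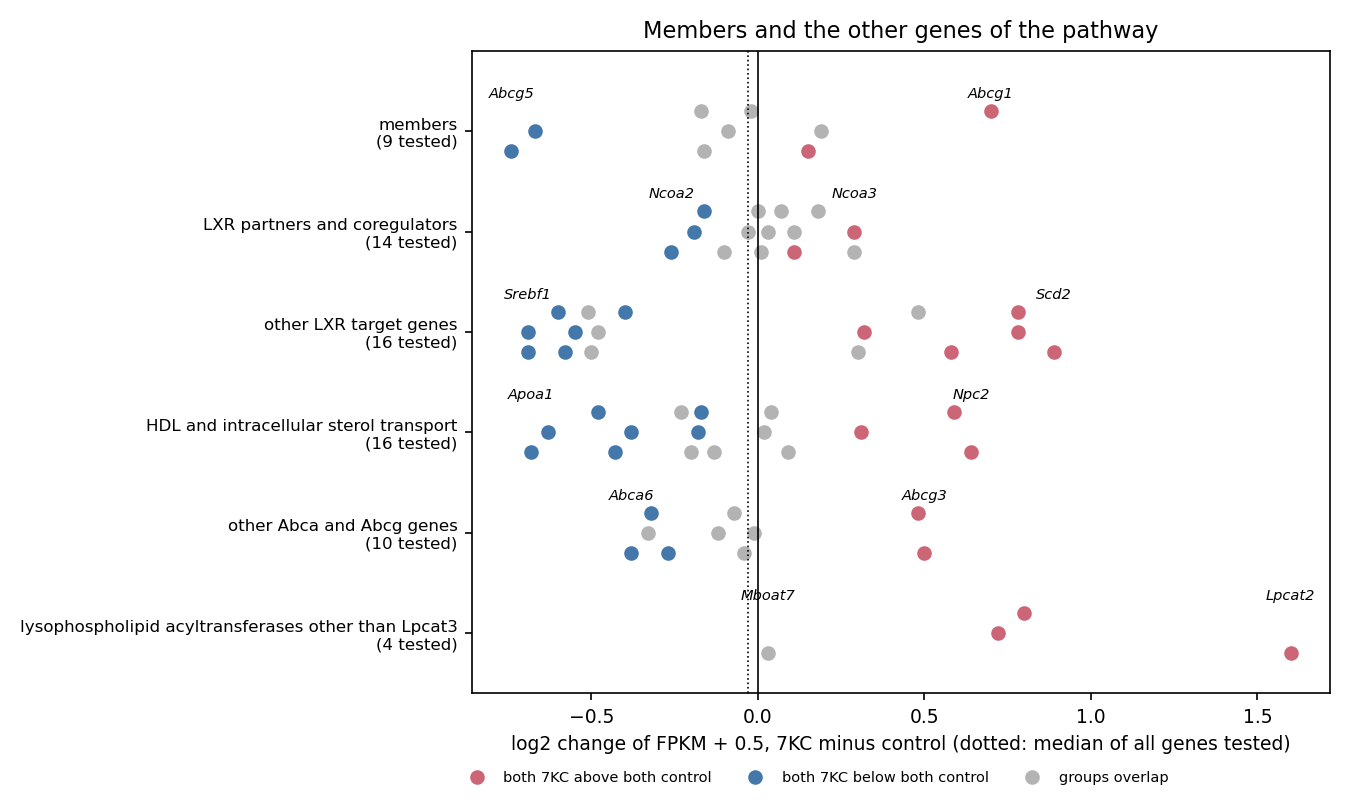
Log2 change of FPKM + 0.5, 7KC minus control (x axis), of every tested gene of each list described (y axis, with the number tested); the genes at either end of a list are named, and the dotted line is the median of all tested genes, -0.03. Red points are genes with both 7KC libraries above both controls, blue points those with both below and grey points those that overlap. The other LXR targets and the 9 genes lie on both sides of 0, with medians of -0.44 and -0.09.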

How the data were processed

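Liver RNA of the control group (2 libraries) and the 7KC group (2 libraries), grouped by the labels, was sequenced by the authors as single-end reads from a stranded library kit. Reads were mapped to mm10. The submitters' processing notes name TopHat2 2.1.1, Bowtie2 2.2.8, SAMtools 0.1.18 and Cuffdiff 2.2.1, while the methods name Cufflinks. The annotation and the settings for strand and multi-mapped reads are not given in the sources used here. FPKM was deposited by the authors, 1 value per gene symbol and library.

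Values were compared as log2(FPKM + 0.5), a scale that shrinks the change of low genes. Genes averaging 0.5 FPKM or more over the libraries (12299) entered a two-sided test with limma 3.58.1 in R 4.3.3 (trend in the prior variance, 2 residual and 3.27 prior degrees of freedom) with p-values adjusted by Benjamini-Hochberg; the code was tested on simulated data. Depth was estimated from low values, of which 70.1% to 72.0% per library lay within 0.1 of a whole read (20.0% expected at random). Gene positions and exon overlaps are from GENCODE M21 and promoter sequences from RefSeq (GRCm38.p6). The 9 genes and all lists were chosen with earlier results of these data known. All 9 genes are named. From each pathway list the 2 genes with the smallest p are named, with Srebf1, Cyp7a1, Apoe, Lpl, Apoa1, Scarb1, Rxra, Npc1 and Npc2, and for Abcg1 and Abcg5 the 3 genes nearest in profile, of which 1 is not reported here, like 1 list of receptors. Alb, Lyz2, Dcn, Ly6c2, Fasn and the resident Kupffer cell markers were named after their values were seen. So were the end genes labelled in the plot of lists. Alternatives were another pseudocount (1 or 0.1 FPKM), no filter or a mean of at least 5 FPKM, no trend, 3 rescalings, a replicate block and leaving out each library. Symbols of Tf, Trac and Hbb-bt were not matched.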

Additional observations from a re-analysis of the deposited data

How the results depend on the processing

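None of the 9 genes passed the threshold under any of the 13 alternatives run for each, and Nr1h2, Abcg1, Abcg5 and Abcg8 kept their direction under all 13. Adjusted p-values lay between 0.0973 and 0.503 for Abcg1, between 0.0825 and 0.442 for Abcg5 and between 0.0792 and 0.618 for Abcg8. Rescaling to the same sum turned Nr1h3 to 0.19, Abca1 to 0.12, Mylip to 0.03 and Lpcat3 to 0.05, and quantile normalization turned Nr1h3 to 0.06. With 1 library left out, the log2 change ran from -0.07 to 0.04 for Nr1h3, -0.33 to 0.16 for Abca1, -0.48 to 0.14 for Mylip and -0.26 to 0.63 for Pltp, and the log2 ratio of Abcg5 to Abcg8 from -0.20 to 0.07. The cause of these turns was not tested. Of the 9, those without overlap then numbered 2 to 4 higher (33.7% to 37.3% of all tested genes) and 2 to 5 lower (37.5% to 41.9%).

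Over all genes, the 59 higher and 3 lower became 111 higher with a pseudocount of 1 FPKM, 0 and 1 without a filter, 39 and 1 without a trend, 398 and 7 after rescaling to the same sum and 94 higher by the median ratio. Leaving out 1 library gave 2 (without 7KC replicate 2) to 389 (without control replicate 1) higher and 1 to 52 lower. With the replicate block 0 and 0 genes passed, and the log2 change of Abcg1 was 0.70 with an adjusted p of 0.259. Over all tested genes, deviations of libraries with the same number correlated at -0.141. This is 1 value from 4 libraries and cannot show whether the numbers pair the libraries, which the labels do not say. Of the list genes, which had no calls, 9 of 66 markers passed after rescaling to the same sum. Ly6c2 was among them, with a limma adjusted p of 0.0221. On that scale 398 of all 12299 tested genes passed upwards and 7 downwards. With a pseudocount of 1 FPKM 4 markers passed, beside 111 higher and 4 lower of all tested genes. By the median ratio 2 markers passed, beside 94 higher and 4 lower. Some others passed only with 1 library left out. Of the pathway genes Tgm2 passed after rescaling to the same sum (0.0341), and Fasn (0.0458), Cyp7a1 (0.0286) and Lpcat2 (0.0455) without control replicate 1. A crossed block, added after seeing the data, gave 551 higher and 37 lower.

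With 2 libraries per group the 95% intervals of the 9 log2 changes are wide, and those of Abcg1, Abcg5 and Abcg8 were the ones that excluded 0. A library left alone in its arm was assumed to vary like the others. Counting error alone had a coefficient of variation of 1.51% (Abcg8) to 6.60% (Mylip), and for Abcg1, Mylip and Pltp the control SD was smaller than the counting error of that gene.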
